A study of Saccharomyces cerevisiae with 40 samples.

Results

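Budding yeast that used tyrosine as its nitrogen source was compared with yeast that used urea, on 2 arrays that each held both RNA samples. The genes described are those with a value on both of these arrays, 3423 of the 5557 genes that the probes name. Tyrosine is an aromatic amino acid, and its nitrogen is released by transamination. In budding yeast the remaining carbon skeleton is decarboxylated and then reduced or oxidised to a fusel alcohol or acid, a route known as the Ehrlich pathway. The transcription factor Aro80 activates the first genes of this route when aromatic amino acids are present, and nitrogen catabolite repression, through GATA factors such as Gln3 and Gat1, holds down genes for poorer nitrogen sources when a richer one is present.

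The strain was Sigma1278b, a Saccharomyces cerevisiae laboratory strain that forms filaments. Cells of every group grew in minimum medium with 3% glucose and were taken in exponential growth, at low density, after at least 10 generations. Tyrosine was given at 10 mM. The values set beside it come from tryptophan, given at 5 mM, from phenylalanine, given at 10 mM, and from 17 further sources at 10 mM. Urea, at 10 mM, was the other sample on every array. Each of the 20 sources had 2 arrays, and nothing in the labels says that these were grown as separate cultures. The p-values therefore speak only for array-to-array spread.

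All values are log ratios of source over urea. The deposited table names neither the base of the log nor the order of the channels. Base 2 and Cy5 over Cy3 were assumed here, and every fold and direction rests on that assumption. They describe whole cultures, in which fewer expressing cells and less RNA per cell cannot be told apart. Urea carried the dye Cy5 on both tyrosine arrays and both tryptophan arrays, while the other 18 sources had 1 array of each orientation. A dye effect in tyrosine was therefore estimated from the other sources and cannot be read from its own arrays. Spots without a value made up 25.4% of the first tyrosine array and 42.7% of the second, in a range of 5.07 to 47.6% over the 40 arrays. The log2 ratios of the first and the second tyrosine array correlated at 0.647 across the 3423 genes, which are not independent replicates, and the median absolute difference was 0.226.

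On both arrays 33 genes lay above 1 and 10 below -1, and no gene lay beyond 1 in opposite directions. A limma-type moderated fit over all 40 arrays, with a dye term, tested the 3323 genes that had a value on at least 30 arrays. At a Benjamini-Hochberg adjusted p under 0.05, 280 genes were higher on tyrosine than on urea and 220 were lower, which is 8.43% and 6.62% of the genes tested. The counts over urea given below for gene lists are to be read beside these shares. Both arrays lay on the side of the fitted value for 268 of the higher and 212 of the lower genes. The fitted ratio was above 1 for 44 genes and below -1 for 12, and the median over all tested genes was -0.0019. Without the second tyrosine array, 129 genes were higher and 66 lower.

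**Figure D1:**
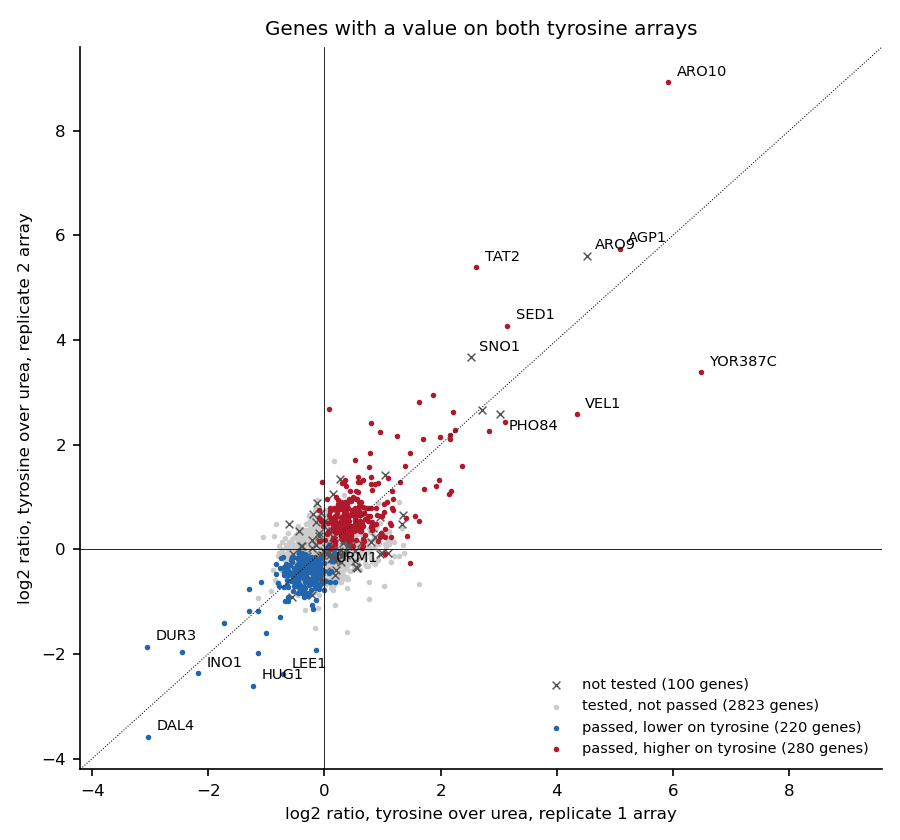
Log2 ratio of tyrosine over urea on the first array (x axis) and the second (y axis) for the 3423 genes with both values. Colours mark the 280 genes that passed as higher, the 220 that passed as lower and those that were tested and did not pass, and crosses mark 100 genes that were not tested. ARO10 lies at 5.92 and 8.92, and DAL4 at -3.04 and -3.58.

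The genes of aromatic amino acid breakdown held the largest fitted ratio of the comparison. ARO10 (YDR380W), which encodes the decarboxylase of the aromatic keto acids, read 5.92 and 8.92 on the tyrosine arrays. Its fitted ratio was 7.46 with an SE of 0.40, a 177-fold higher signal than on urea (adjusted p = 1.27e-10 in the moderated fit). The ratio was 8.97 without the first tyrosine array and 5.96 without the second, so the size of the fold depended on the array. Both arrays were far above every array of phenylalanine, at 3.57 and 4.45, and the tryptophan arrays, at 5 mM, read 6.61 and 6.46. Among the 13 sources at 10 mM other than tyrosine that had a fitted ARO10 ratio, values ran from near 0 on proline to 4.01 on phenylalanine.

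ARO9, the transaminase of aromatic amino acids that Aro80 induces, read 4.52 and 5.61 on tyrosine. It had values on 19 of the 40 arrays and was not tested. Tryptophan gave 5.54 and 4.05 and phenylalanine 2.33 and 4.41, so the arrays of all 3 aromatic sources were high and overlapped. ARO8, which encodes the other aromatic transaminase, did not pass, with -0.39 and 0.06 on the tyrosine arrays. Its arrays nonetheless lay above those of phenylalanine, at -1.15 and -0.81, and the difference of 0.83 had an SE of 0.21 (adjusted p = 0.0371 in the moderated fit). The ARO8 difference did not pass without the first phenylalanine array (adjusted p = 0.368) or the second (adjusted p = 0.0621), or without the dye term (adjusted p = 0.0715).

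ESBP6 (YNL125C), an Aro80 target that encodes a protein similar to monocarboxylate permeases, read 1.62 and 2.82 on tyrosine. Its fitted ratio was 2.19 with an SE of 0.19 (adjusted p = 3.56e-08), or 2.79 without the first array and 1.58 without the second. Across 16 other sources at 10 mM it ranged from -1.01 to 0.88, so tyrosine stood above the whole range, and the difference from their mean was 2.45 with an SE of 0.20 (adjusted p = 3.37e-08). On tryptophan, at 5 mM, ESBP6 read 3.18 and 2.58, and its fitted ratio of 2.85 was above that on tyrosine. The regulator gene ARO80 itself had a value on the second tyrosine array alone, 1.90, beside 1.66 and 1.79 on tryptophan and 0.25 and 0.84 on phenylalanine. Of the 5 genes of this list, 3 were tested over urea and ARO10 and ESBP6 passed, also with either tyrosine array left out.

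**Figure D2:**
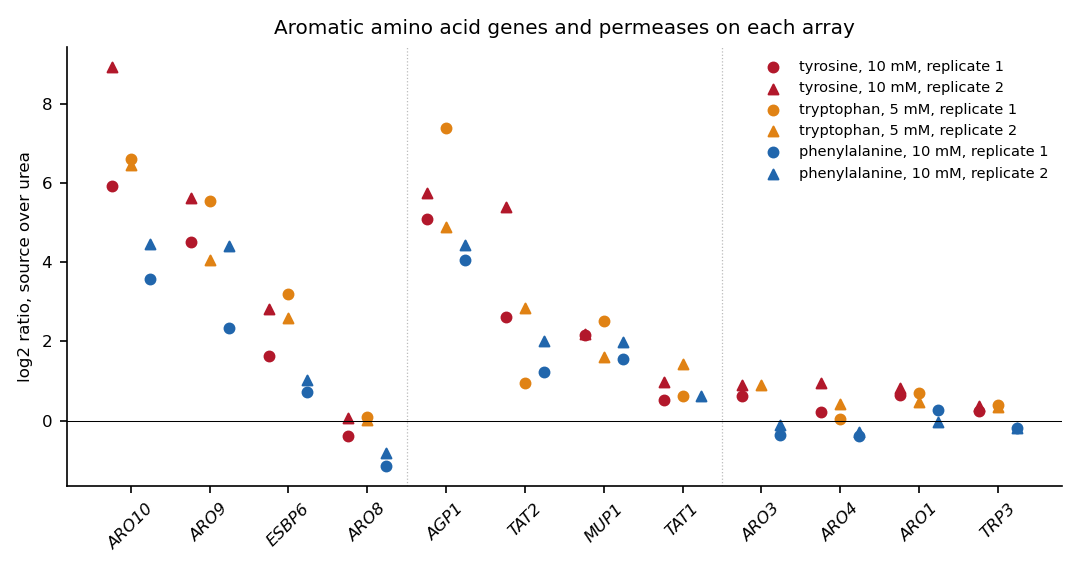
Log2 ratio of source over urea on each array for the tested or leading genes of aromatic breakdown (left), permeases (middle) and aromatic synthesis (right). Circles are first and triangles second arrays, in red for tyrosine at 10 mM, orange for tryptophan at 5 mM and blue for phenylalanine at 10 mM. The tyrosine arrays of ARO10 and ESBP6 lie above those of phenylalanine.

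Of 13 tested genes for the later enzymes of the Ehrlich pathway, which are decarboxylases, alcohol and aldehyde dehydrogenases and ester-forming enzymes, 1 was higher and none lower, and the median ratio was 0.17. That count was close to the share of 8.43% higher over all tested genes. The gene that rose was ADH4, an alcohol dehydrogenase, with 2.83 and 2.26 on the arrays and a fitted 2.13 with an SE of 0.37 (adjusted p = 0.0003). The ADH4 difference from the mean of the other sources at 10 mM did not pass (0.11 with an SE of 0.38, adjusted p = 0.896), and their fitted values ran from 1.47 to 2.62. PDC1, the main pyruvate decarboxylase gene, read 0.02 and -0.06. ALD5 and ATF1, for an aldehyde dehydrogenase and an alcohol acetyltransferase, were each higher on tyrosine than on the mean of the other sources, by 0.67 (SE 0.21, adjusted p = 0.0493) and 0.43 (SE 0.10, adjusted p = 0.0071). Neither difference passed when the second tyrosine array was left out.

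Amino acid permease genes were higher for 4 of 12 tested members and lower for none, with a median ratio of 0.37, beside 8.43% higher and 6.62% lower over all tested genes. AGP1 (YCL025C), a broad-range permease gene induced by external amino acids through the SPS sensor, read 5.09 and 5.75 and had a fitted ratio of 5.78 with an SE of 0.48 (adjusted p = 6.96e-09). TAT2 (YOL020W), the high-affinity permease gene for tryptophan and tyrosine, read 2.62 and 5.40. The fitted TAT2 ratio was 4.04 with an SE of 0.53 (adjusted p = 4.34e-05), above all 11 fitted sources at 10 mM, which ran from 0.74 to 2.48. The ratio was 5.44 without the first array and 2.65 without the second. The first TAT2 array was only slightly above that range and the second far above it. On tryptophan, at 5 mM, TAT2 read 0.94 and 2.83, and the higher of these was above the first tyrosine array. The difference of TAT2 from phenylalanine, 2.43 with an SE of 0.73, did not pass (adjusted p = 0.105).

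MUP1, a methionine permease gene, read 2.16 and 2.19 and had a fitted ratio of 2.0 with an SE of 0.23 (adjusted p = 1.26e-06). TAT1, a permease gene for tyrosine, read 0.51 and 0.97. The TAT1 ratio of 0.95 (SE 0.25, adjusted p = 0.0132) was 0.72 with an adjusted p of 0.268 without the second array and 0.74 with an adjusted p of 0.147 without the dye term. GAP1, the general amino acid permease gene under nitrogen catabolite repression, lay at -0.03 and 0.08, on either side of 0. The remaining tested permeases were DIP5 at 0.89, UGA4 at 0.41, CAN1 at 0.33, MUP3 at -0.05, PUT4 at -0.08, LYP1 at -0.13 and MMP1 at -0.15 in the fit, and none of them passed.

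Against the mean of the other sources at 10 mM, permease genes stood higher on tyrosine for 6 of 11 tested members and lower for none. Over all 3013 genes tested in that contrast, 5.61% were higher and 3.58% lower. The 6 were AGP1, with a difference of 2.88, DIP5 with 1.84, PUT4 with 1.12, MUP1 with 0.94, CAN1 with 0.93 and MUP3 with 0.40. Of the 11 genes, 2 passed when the second tyrosine array was left out, 4 when the first was left out and 5 without the dye term. GNP1, BAP3 and PTR2, further targets of the SPS sensor, had a value on the first tyrosine array alone, of 2.10, 1.73 and 1.08. Of the SPS sensor and its effectors 3 genes were tested and none passed, with fitted ratios of -0.25 to 0.15.

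Genes of aromatic amino acid synthesis were higher for 4 of 11 tested members and lower for none, and the median ratio was 0.10. ARO3 and ARO4, which encode the first enzymes of the shikimate pathway and are feedback-inhibited by phenylalanine and tyrosine, both rose. ARO3 read 0.62 and 0.91, with a fitted ratio of 0.81 (SE 0.15, adjusted p = 0.000562). ARO4 read 0.23 and 0.95, with a fitted ratio of 0.69 (SE 0.14, adjusted p = 0.00191). ARO1, for the pentafunctional enzyme of the same pathway, read 0.66 and 0.81, and TRP3, of the tryptophan branch, 0.23 and 0.37. All 8 of these array values were above 0. Without the second tyrosine array ARO1 alone of the 4 passed: ARO3 was at 0.67 with an adjusted p of 0.0579, ARO4 at 0.33 with 0.307 and TRP3 at 0.24 with 0.33. Without the first array TRP3 was at 0.38 with an adjusted p of 0.0681, and without the dye term it was at 0.30 with 0.0502.

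TYR1, which encodes the prephenate dehydrogenase that commits carbon to tyrosine, did not pass, with 0.18 and 0.40 on the arrays and a fitted 0.10 (SE 0.12, adjusted p = 0.6). ARO7, for the chorismate mutase that tyrosine inhibits, read -0.58 and -0.15 and did not pass (fitted -0.46, adjusted p = 0.0534). The fitted ratios of the other tested members were 0.28 for TRP2, 0.10 for TRP4, 0.08 for TRP5, 0.01 for TRP1 and -0.17 for ARO2. PHA2, of the phenylalanine branch, had 1 tyrosine value, 0.14.

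Aromatic synthesis was 1 of 6 amino acid synthesis lists, put together after their values were seen, which held 51 tested genes. Of these, 21 were higher on tyrosine than on urea and 1, THR1, was lower, and the median ratio was 0.28. On tryptophan, at 5 mM, the median ratio was 0.33 over the 46 of these genes with a fitted value. ARG1, for argininosuccinate synthetase, read 1.38 and 1.58 and had a fitted ratio of 1.42 with an SE of 0.25 (adjusted p = 0.000301). LEU9 and LEU4, which encode the first enzymes of leucine synthesis, read 0.58 and 1.38, and 0.82 and 1.14. HIS4 read 0.41 and 0.78, and HOM3, for aspartate kinase, 0.54 and 0.64. These values were all above 0. The count of higher genes was 18 without the first tyrosine array, 13 without the dye term and 5 without the second array. GCN4, which encodes the activator of these pathways, read 0.06 and 0.27 and did not pass (adjusted p = 0.795), although that factor is known to be controlled mainly at translation.

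Genes for the uptake and breakdown of allantoin and the uptake of urea were lower on tyrosine for 5 of 8 tested members and higher for none, with a median ratio of -1.66. The allantoin permease gene DAL4 read -3.04 and -3.58, and its fitted ratio was -3.35 with an SE of 0.33 (adjusted p = 8.32e-08). DUR3, the urea transporter gene, read -3.05 and -1.86 (fitted -2.34, SE 0.32, adjusted p = 1.65e-05), and its ratio was -1.74 without the first array and -2.93 without the second. DAL7, for malate synthase of allantoin breakdown, read -2.46 and -1.97, and DAL2, for allantoicase, -1.14 and -1.99. All of these arrays were clearly below 0. DAL5, an allantoate permease gene, read -1.31 and -1.18 with a fitted ratio of -1.70 (adjusted p = 0.00333). It was at -1.64 with an adjusted p of 0.0508 without the first array, at -1.76 with 0.0518 without the second and at -1.24 with 0.163 without the dye term. DAL1, DAL3 and DCG1 did not pass, with fitted ratios of -0.03, -0.10 and -0.49. None of the 8 passed against the mean of the other sources at 10 mM, where the median difference was 0.43.

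Outside the allantoin genes, 20 targets and factors of nitrogen catabolite repression were tested. Of these, 5 were higher on tyrosine and 1 lower, beside 8.43% and 6.62% over all tested genes, and the median ratio was -0.11. CAR1, for arginase, read 2.21 and 2.62 and had a fitted ratio of 2.48 with an SE of 0.23 (adjusted p = 4.04e-08). GDH2, for the glutamate dehydrogenase that frees ammonia from glutamate, read 1.87 and 2.95 (fitted 2.31, SE 0.23, adjusted p = 8.32e-08). UGA1 and UGA2, for the use of gamma-aminobutyrate, read 0.31 and 1.26, and 0.52 and 0.77, and OPT2, an oligopeptide transporter gene, 0.31 and 0.83. CAR1 and GDH2 were thus high on both arrays, and the other 3 rose less. Without the second array UGA1 was at 0.44 with an adjusted p of 0.272, UGA2 at 0.56 with 0.0827 and OPT2 at 0.28 with 0.508, and 2 of the 20 passed as higher. The gene that was lower was UGA3, at -0.47 and -0.45, with a fitted -0.53 (adjusted p = 0.0179). UGA3 was at -0.52 with an adjusted p of 0.117 without the first array, at -0.54 with 0.136 without the second and at -0.46 with 0.0713 without the dye term.

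Against the mean of the other sources at 10 mM, 11 of the 19 of these genes that were tested were higher on tyrosine and none lower, the median difference was 0.79, and all 19 differences were above 0. Over all 3013 genes tested in that contrast, 5.61% were higher and 3.58% lower, and the median difference was 0.01. VBA1, a vacuolar amino acid transporter gene, had a fitted ratio to urea of -0.43 on tyrosine, against -3.50 to -0.11 over the other sources (difference 1.63, SE 0.27, adjusted p = 0.000331). The GATA repressor gene DAL80 lay at -0.61, against -5.45 to -0.61 (difference 1.18, SE 0.29, adjusted p = 0.0103). The ammonium permease gene MEP2 lay at -0.13, against -4.07 to -0.01 (difference 1.07, SE 0.27, adjusted p = 0.0112). GLN1, for glutamine synthetase, lay at 0.12, above all 18 others, which ran from -3.27 to -0.01. Among the sources GLN1 was highest on tyrosine, while 1 source lay above it for DAL80, 2 for VBA1 and 5 for MEP2. The count of 11 was 8 without the dye term, 6 without the first tyrosine array and 3 without the second. Within the table that holds the arrays with urea in Cy5, each other source at 10 mM has 1 array. The median difference there was again 0.79, which is no separate check.

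INO1 (YJL153C), for the inositol-3-phosphate synthase that makes inositol, was lower on tyrosine than on urea and lower than on any other source. It read -2.17 and -2.37, and the fitted ratio was -2.03 with an SE of 0.29 (adjusted p = 3.03e-05). The 18 other sources at 10 mM ran from -1.76 to 0.94, and phenylalanine read 0.19 and -0.44. The tryptophan arrays, at 5 mM, lay on the other side of 0 from the tyrosine arrays, at 0.83 and 0.89. The difference from the mean of the others was -1.54 with an SE of 0.30 (adjusted p = 0.00141), and it was -1.44 with an adjusted p of 0.0513 without the second tyrosine array. OPI3, for the methyltransferase of the last steps of phosphatidylcholine synthesis, read -0.63 and -0.98, with a fitted ratio of -0.80 (SE 0.16, adjusted p = 0.00144). OPI3 was also lowest on tyrosine among the 20 sources, and without the second array its ratio was -0.62 with an adjusted p of 0.103. These were the 2 lower genes among 15 tested for inositol and phospholipid synthesis, and none was higher. CHO1, CHO2 and ITR1, which share inositol-dependent control with INO1, lay at -0.07, 0.20 and 0.05 in the fit.

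Genes for protein folding in the endoplasmic reticulum stayed near their urea level on tyrosine and were below the other sources. Over urea 1 of 12 tested genes was higher and the median ratio was -0.01. Against the mean of the other sources at 10 mM, 7 of 11 were lower and none higher, with a median difference of -0.58 and all 11 differences below 0. Shares over all genes tested in that contrast were 3.58% lower and 5.61% higher. ERO1, for the oxidase that drives disulfide formation, read 0.16 and 0.35 on tyrosine, with a fitted -0.02, against 0.48 to 1.46 over 17 other sources (difference -1.04, SE 0.22, adjusted p = 0.0036). KAR2, the chaperone BiP, read 0.21 and 0.39, with a fitted 0.06, against 0.26 to 1.5 over 18 others (difference -0.87, SE 0.21, adjusted p = 0.0093). PDI1, for protein disulfide isomerase, read -0.10 and 0.12 (difference -0.76, SE 0.20, adjusted p = 0.0131). Tyrosine was the lowest source for each of these 3.

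The other 4 lower genes of that list were DER1, SEC61, FPR2 and MPD1, with differences of -0.67, -0.60, -0.58 and -0.46. HAC1, which encodes the activator of the unfolded protein response, rose on tyrosine, with 0.42 and 0.95 on the arrays and a fitted 0.98 (adjusted p = 0.000411). The HAC1 difference from the other sources did not pass (-0.06, adjusted p = 0.884). The HAC1 ratio over urea was 0.72 with an adjusted p of 0.0801 without the second array, and 0.69 with an adjusted p of 0.183 without the dye term. The count of 7 was 3 without the dye term, 1 without the first tyrosine array and 5 without the second. Without the dye term KAR2 and ERO1 had adjusted p-values of 0.253 and 0.192 in this contrast. Within the table of arrays with urea in Cy5 none of the 11 passed. In that table each other source at 10 mM has 1 array, so the residual spread comes from the tyrosine and tryptophan pairs alone. The median difference there was again -0.58. Tryptophan, the other source with both arrays in that orientation, had fitted values of 0.43 for KAR2, 0.27 for ERO1 and 0.01 for PDI1. The part that orientation plays in these low values was not tested.

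Iron uptake genes were higher for 5 of 11 tested members and lower for none, with a median ratio of 0.54, beside 8.43% higher and 6.62% lower over all tested genes. SIT1 (YEL065W), a siderophore transporter gene, read 1.99 and 2.15 and had a fitted ratio of 1.99 with an SE of 0.14 (adjusted p = 5.65e-10). This was above all 18 other sources at 10 mM, which ran from -1.31 to 1.57 (difference from their mean 1.60, SE 0.14, adjusted p = 6.16e-08). On tryptophan, at 5 mM, SIT1 had a value on the first array alone, 2.34, above both tyrosine arrays. The siderophore transporter genes ENB1 and ARN1 read 0.57 and 1.29, and 0.62 and 0.35. FRE1, for a ferric reductase, read 0.54 and 0.96, and CCC2, for the copper pump that serves the iron oxidase, 0.60 and 0.74. All arrays of the 5 were above 0. Without the second array 3 of the list passed, FRE1 being at 0.54 with an adjusted p of 0.094 and CCC2 at 0.47 with 0.151. ARN1 was at 0.49 with an adjusted p of 0.135 without the first array and at 0.49 with 0.124 without the dye term.

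Cell wall genes were higher for 4 of 8 tested members, where the shares over all tested genes were 8.43% higher and 6.62% lower. SED1, for a major wall glycoprotein, read 3.15 and 4.27, with a fitted 3.60 (SE 0.30, adjusted p = 6.96e-09). On tryptophan, at 5 mM, it read 3.69 and 3.39, with a fitted 3.43 close to that on tyrosine. SED1 was higher on tyrosine than on any of the 18 other sources at 10 mM, which ran from 1.03 to 2.63 (difference from their mean 1.58, SE 0.31, adjusted p = 0.00148, or 1.02 with an adjusted p of 0.166 without the second tyrosine array). FLO11, the flocculin gene needed for filaments, read 1.97 and 1.33, TIP1, a mannoprotein gene, 1.92 and 1.21, and CWP2, for another wall mannoprotein, 0.68 and 0.17. All 8 array values of these genes were above 0, and CWP2, whose second array was near 0, was at 0.17 with an adjusted p of 0.594 without the first array. Drug and polyamine exporter genes were higher for 4 of 11 and lower for 1, QDR2, which did not pass with either tyrosine array left out (adjusted p = 0.156 without the first and 0.125 without the second). SNQ2 and YOR1, for 2 multidrug exporters, read 0.60 and 0.90, and 0.30 and 0.58 on tyrosine, beside 2.76 and 2.72, and 2.47 and 1.94 on tryptophan at 5 mM. YOR1 had an adjusted p of 0.0346, which was 0.0521 without the first array and 0.412 without the second.

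QDR3, for a transporter of the same drug exporter class, read 0.96 and 2.24 on tyrosine and had a fitted ratio of 1.72 with an SE of 0.17 (adjusted p = 1.44e-07), or 2.36 without the first array and 1.08 without the second. The full fit lay above all 17 fitted sources at 10 mM, which ran from -0.79 to 1.21. ENA1, for the sodium pump of the plasma membrane, read 1.47 and 1.85, with a fitted 2.06 (SE 0.24, adjusted p = 1.33e-06), also above the highest of 18 others, at 1.11. Without the dye term the ENA1 fit was 1.66. On phenylalanine ENA1 read 1.55 and 0.63, so the arrays of the 2 sources overlapped. The ENA1 difference from phenylalanine, 0.97 with an SE of 0.33, did not pass (adjusted p = 0.139 in the moderated fit). SDH6, for an assembly factor of succinate dehydrogenase, read 2.16 and 2.11, with a fitted 1.93 (SE 0.17, adjusted p = 1.05e-08). The other sources at 10 mM ran from -0.82 to 1.56 for SDH6, phenylalanine being highest, and the tryptophan arrays read 2.28 and 2.15. SDH6 thus had its highest values on the 3 aromatic sources. In the RefSeq annotation of assembly R64 SDH6 and ARO10 lie next to each other.

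YOR387C and VEL1 read 6.48 and 3.39, and 4.35 and 2.59. They are similar in sequence to each other, so cross-hybridisation of their probes is possible and was not tested. Both were also above urea on all 18 other sources at the dose of tyrosine. Fitted values there ran from 1.87 to 5.51 for YOR387C and from 1.63 to 4.45 for VEL1. On tyrosine they were 4.10 and 3.03. Neither gene passed against the mean of those sources in the moderated fit. The differences were 0.09 (adjusted p = 0.958) for YOR387C and -0.35 (adjusted p = 0.732) for VEL1. Without the first array YOR387C was at 2.55 with an adjusted p of 0.0823 and VEL1 at 2.15, and without the second they were at 5.64 and 3.91. ATG41, an autophagy gene, read 2.36 and 1.60, against 0.73 to 2.20 over 17 other sources. ZPS1, for a secreted protein, read 3.12 and 2.44, with a fitted 2.05 against a highest other value of 1.98. IRC7, for an enzyme similar to cystathionine beta-lyase, read 0.81 and 2.40 (fitted 1.96, adjusted p = 8.3e-05), and without the second array it was at 1.16 with an adjusted p of 0.0579. YOR062C, a gene of unknown function, read 1.70 and 2.10, and NDE1, for the external NADH dehydrogenase of mitochondria, 2.24 and 2.28. The NDE1 difference from the mean of the other sources, 0.76, did not pass (adjusted p = 0.0589 in the moderated fit). The 2 arrays lay close together for NDE1 and YOR062C and far apart for YOR387C, VEL1 and IRC7.

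Among the 15 lowest genes, DSD1, for D-serine dehydratase, read -1.74 and -1.40 (fitted -1.60, SE 0.23, adjusted p = 2.84e-05). EEB1, for an acyltransferase that makes ethyl esters, read -1.01 and -1.60 (fitted -1.21, SE 0.17, adjusted p = 2.84e-05), and HXT2, a glucose transporter gene, -0.76 and -1.29. YIL092W read -1.15 and -1.18. These 4 were below 0 on both arrays by a wide margin. Against the mean of the other sources at 10 mM, EEB1 alone of the 4 passed in the moderated fit (difference -0.78, adjusted p = 0.00537). The differences of DSD1, HXT2 and YIL092W were 0.02, -0.17 and -0.36 (adjusted p = 0.967, 0.63 and 0.203). RNR2 and HUG1, for a subunit and an inhibitor of ribonucleotide reductase, read -0.68 and -0.99, and -1.23 and -2.61. Without the second array RNR2 was at -0.73 with an adjusted p of 0.0801 and HUG1 at -0.82 with 0.285. LEE1, a zinc finger gene, and SPO73, a sporulation gene, read -0.71 and -2.38, and -0.15 and -1.93, and without the second array they were at -0.77 with an adjusted p of 0.469 and at -0.19 with 0.684. URM1, for a ubiquitin-like modifier, had a fitted ratio of -0.92 (adjusted p = 0.00782) although its arrays read 0.05 and 0.07. The fitted URM1 value came from a dye term of -0.98, and of the 500 genes that passed it was the 1 with both arrays on the other side of 0 from its fit. RNR2, LEE1, SPO73 and URM1 did not pass against the mean of the other sources at 10 mM (differences of 0.18, 0.58, 0.02 and 0.08), and HUG1 was not tested there.

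For genes of respiration the 2 tyrosine arrays differed. Of 27 tested genes for the respiratory chain and ATP synthase, 6 were higher and none lower, with a median ratio of 0.30, beside 8.43% and 6.62% over all tested genes. NDE1 led the list, followed by QCR9 and RIP1, for subunits of the cytochrome bc1 complex, with 1.05 and 0.39, and 0.81 and 0.37. NDI1, the internal NADH dehydrogenase gene, read 0.82 and 0.47. The first array was higher for QCR9, RIP1 and NDI1. The list had 13 higher genes without the second array and 2 without the first, with medians of 0.67 and -0.03. The citric acid cycle and retrograde response list had 5 higher genes of 24, among them SDH2 at 1.63 and 0.54, IDH1 at 0.69 and 0.69 and PYC2, for pyruvate carboxylase, at 0.71 and 0.79. Of the 24, 3 passed without the first array, when SDH2 was at 0.48 with an adjusted p of 0.206, and 3 without the second.

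The translation machinery was close to its urea level. Of 123 tested genes for cytosolic ribosomal proteins, 1 was higher and 2 lower, and the median ratio was -0.09. Of 62 tested ribosome biogenesis genes none was higher and 5 were lower (median -0.13), and 45 genes for mitochondrial ribosomal proteins had 6 higher and none lower (median 0.06). The 5 lower biogenesis genes were 2 without the first array and 3 without the second, and the 6 higher mitochondrial genes were 3 with either array left out. Ergosterol synthesis had 1 higher and 1 lower of 23, sulfate assimilation and methionine synthesis 2 higher and 2 lower of 23, and glycolysis and fermentation 1 higher of 11. CYS4, for cystathionine beta-synthase, was the highest of the sulfur genes, at 0.78 and 1.85 (fitted 1.36, SE 0.19, adjusted p = 2.85e-05). Shares of 8.43% higher and 6.62% lower held over all tested genes, and the ribosomal protein list lay below both.

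**Figure D3:**
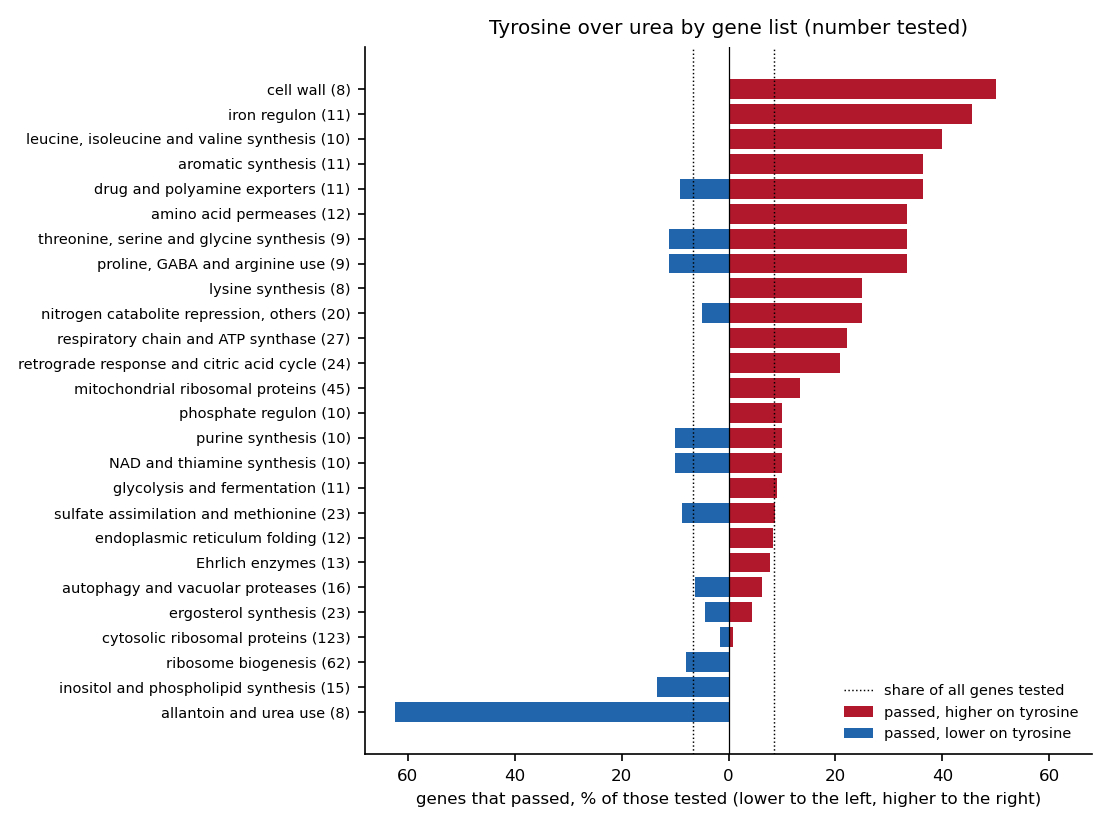
Share of the tested genes of each list with at least 8 tested genes that passed as higher (red, to the right) or lower (blue, to the left) on tyrosine than on urea, with the number tested in brackets. Dotted lines mark the shares over all tested genes, 8.43% and 6.62%. The allantoin and urea list has the largest lower share, and the cell wall and iron lists the largest higher shares.

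The contrast of tyrosine with the mean of the other sources at 10 mM sets tyrosine beside an average of sources that share the same urea control. A gene that passed in it can still be as high or as low on a single other source. Of 3013 genes with at least 14 such sources, 169 were higher on tyrosine and 108 lower, the shares of 5.61% and 3.58% given above. Within the table of arrays with urea in Cy5, 13 passed as higher and 2 as lower. For genes without missing values that table gives the same difference as the fit with a dye term, so its direction is no separate check. Each other source at 10 mM has 1 array there, so the residual spread comes from the tyrosine and tryptophan pairs alone. Without the second tyrosine array 84 passed as higher and 39 as lower. Of the 169 higher genes 87 lay above every other fitted source at 10 mM, and of the 108 lower genes 96 lay below every one. The largest positive differences were those of AGP1 (2.88), ESBP6 (2.45), CIS1 (2.10), ENA1 (1.89), SDH6 (1.86), DIP5 (1.84), QDR3 (1.76), IRC7 (1.74), CAR1 (1.72) and GDH2 (1.65). Of these, ENA1, DIP5 and IRC7 were highest on tyrosine among all fitted sources. The AGP1 fit was 5.78 on tyrosine, 6.16 on citrulline and 6.50 on tryptophan. CAR1 was higher on citrulline (5.47) and GDH2 on isoleucine (2.73). ESBP6, SDH6, QDR3 and CIS1 were higher on tryptophan, at 5 mM (2.85, 2.01, 1.93 and 2.45). CIS1 read 0.30 and 1.27 on tyrosine, against fitted values of -1.64 to 0.61 on 17 other sources. CIS1 was at 1.62 with an adjusted p of 0.205 without the second array and had an adjusted p of 0.282 without the dye term.

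**Figure D4:**
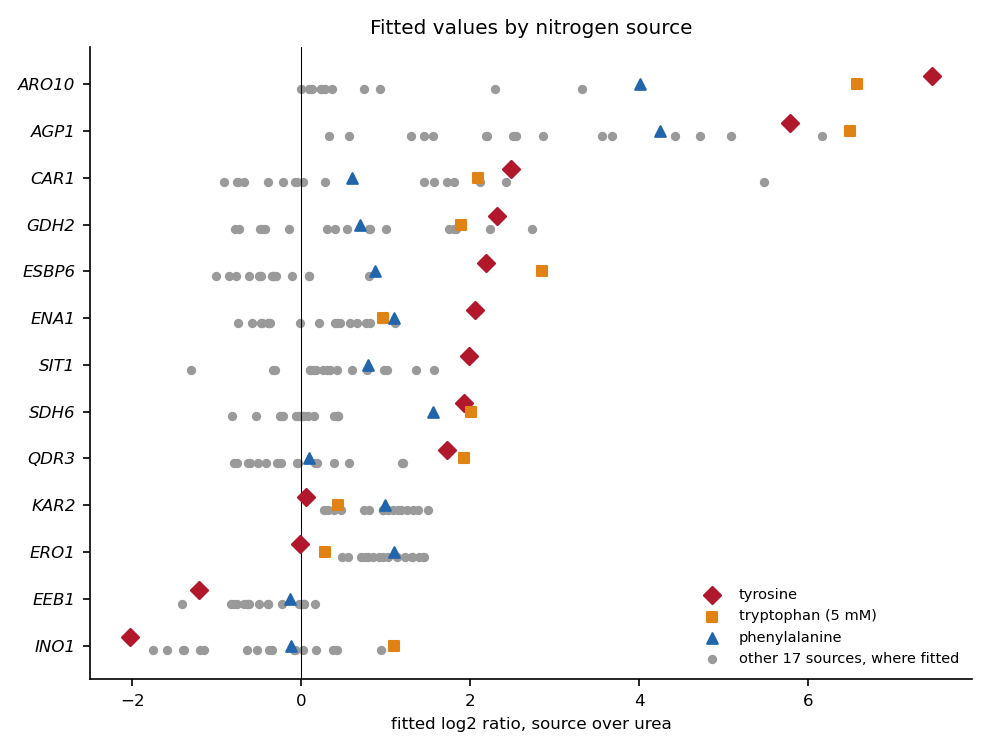
Fitted log2 ratio of source over urea for 13 genes on tyrosine (red diamonds), tryptophan at 5 mM (orange squares), phenylalanine (blue triangles) and the other 17 sources where a fit exists (grey). Tyrosine lies to the right of all grey points for ARO10, ESBP6, ENA1, SIT1, SDH6 and QDR3 and to the left of all of them for KAR2, ERO1 and INO1.

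The largest negative differences were those of INO1 (-1.54), URH1 (-1.09), ERO1 (-1.04), TAD2 (-1.01), KAR2 (-0.87), PMI40 (-0.81), FMO1 (-0.80), EEB1 (-0.78), PDI1 (-0.76) and RAD27 (-0.70). URH1, for uridine nucleosidase, read 0.12 and 0.19 on tyrosine, against fitted values of 0.67 to 1.83 on 16 other sources (SE of the difference 0.20, adjusted p = 0.0011). PMI40, for mannose-6-phosphate isomerase, read -0.40 and -0.34, against -0.05 to 0.95 (SE 0.15, adjusted p = 0.0011). TAD2, for a tRNA deaminase subunit, read -0.19 and 0.20, against 0.31 to 1.22 (SE 0.17, adjusted p = 0.00044), and in the RefSeq annotation it lies next to KAR2. For URH1, PMI40 and TAD2 tyrosine was the lowest fitted source. Of these 20 genes with the largest differences, 10 passed without the dye term and with either tyrosine array left out: AGP1, ESBP6, ENA1, SDH6, QDR3, CAR1, GDH2, URH1, TAD2 and PMI40. The adjusted p-values without the second array were 0.307 for DIP5, 0.161 for IRC7, 0.155 for FMO1, 0.264 for EEB1, 0.59 for RAD27, 0.0674 for KAR2 and 0.0695 for PDI1, and those without the first were 0.0644 for ERO1, 0.115 for KAR2 and 0.152 for PDI1.

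Tyrosine and phenylalanine were both given at 10 mM and differ by the hydroxyl group on the ring of tyrosine, so they could be compared at a matched dose. Tyrosine and tryptophan were not tested against each other because tryptophan was given at 5 mM. Of 3253 genes with both arrays on both sources, 49 were higher on tyrosine (1.51%) and 21 lower (0.646%). Within the table of arrays with urea in Cy5, which leaves out the first phenylalanine array, none passed (limma, 3283 tested, 128 with an unadjusted p under 0.05). In that table every source but tyrosine and tryptophan has 1 array, so the residual spread comes from these pairs alone. In the full fit ARO10 differed by 3.46 with an SE of 0.56 (adjusted p = 0.00286), at 5.92 and 8.92 on tyrosine against 3.57 and 4.45 on phenylalanine. QDR3 read 0.96 and 2.24 on tyrosine against 0.34 and -0.16 on phenylalanine, a difference of 1.63 with an SE of 0.24 (adjusted p = 0.00155). SIT1 read 1.99 and 2.15 against 0.76 and 0.80, a difference of 1.21 with an SE of 0.20 (adjusted p = 0.00238). YOR062C read 1.70 and 2.10 against 0.07 and -0.26, a difference of 1.84 with an SE of 0.25 (adjusted p = 0.00238). The arrays of the 2 sources did not overlap for any of these genes.

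CAR1 read 2.21 and 2.62 on tyrosine against 0.32 and 0.89 on phenylalanine (difference 1.87, SE 0.33, adjusted p = 0.00286), and GDH2 1.87 and 2.95 against 0.31 and 1.08 (difference 1.62, SE 0.32, adjusted p = 0.00835). PCL5, for the cyclin that promotes breakdown of Gcn4, read 0.78 and 0.64 against -0.39 and -0.29. Amino acid synthesis genes were higher on tyrosine for 14 of 50 tested members of the 6 lists and lower for none. Shares over all genes tested against phenylalanine were 1.51% higher and 0.646% lower. The median difference was 0.41, and 43 of the 50 were above 0, while the median difference over all tested genes was 0.02. HOM3 led these, at 0.54 and 0.64 against -0.56 and -0.24 (difference 0.98, SE 0.16, adjusted p = 0.00238), with ARO3 at 1.04 and ARO4 at 1.03. The fitted median over urea of these genes was 0.28 on tyrosine and -0.14 on phenylalanine. The count of 14 was 18 without the first tyrosine array, 4 without the dye term, 3 without the second phenylalanine array and 1 without the second tyrosine or the first phenylalanine array.

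INO1 had the largest negative difference, -1.90 with an SE of 0.41 (adjusted p = 0.0147), at -2.17 and -2.37 on tyrosine against 0.19 and -0.44 on phenylalanine. RAD27, for the flap endonuclease, read 0.31 and -0.43 against 1.10 and 1.09, and DER1, of protein degradation in the endoplasmic reticulum, 0.21 and -0.11 against 0.80 and 0.82. EEB1 read -1.01 and -1.60 against 0.17 and -0.43. The arrays of tyrosine lay below those of phenylalanine for all 4 genes. Over the whole contrast 8 genes passed without the second tyrosine array (8 higher, 0 lower), 200 without the first (127 and 73), 8 without the first phenylalanine array (6 and 2) and 17 without the second (12 and 5). Of the 20 genes with the largest differences, YOR062C, QDR3 and SIT1 passed with each of the 4 arrays left out in turn. Among the others, ARO10, CAR1, GDH2, ESBP6 and INO1 had adjusted p-values of 0.0767, 0.114, 0.153, 0.153 and 0.153 without the first phenylalanine array.

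**Figure D5:**
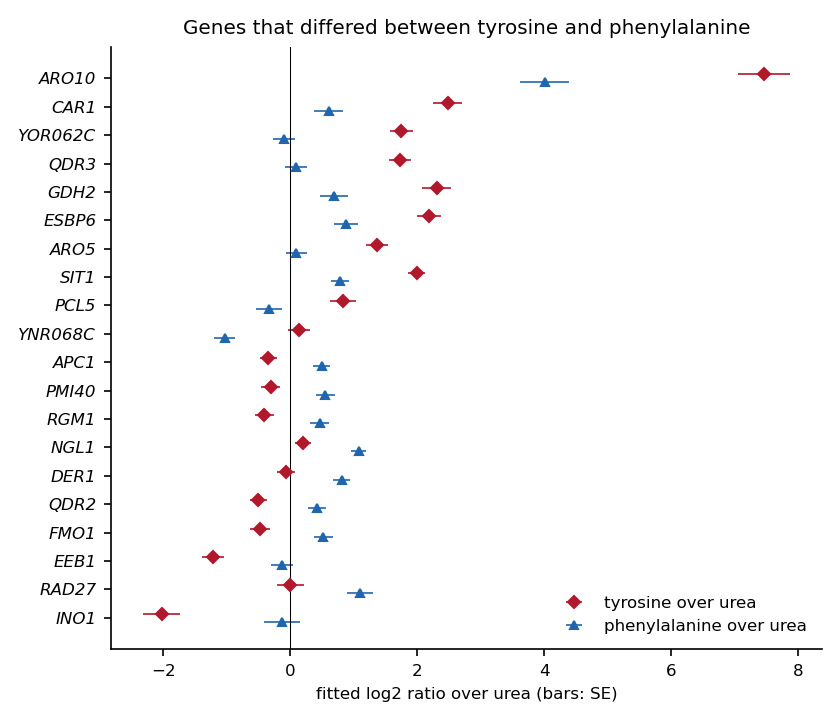
Fitted log2 ratio over urea on tyrosine (red diamonds) and phenylalanine (blue triangles), with bars of 1 SE, for the 10 genes most above and the 10 most below phenylalanine on tyrosine. ARO10 is at 7.46 on tyrosine and 4.01 on phenylalanine, and INO1 at -2.03 on tyrosine and -0.13 on phenylalanine.

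Of the 3423 genes 100 had too few values on the other arrays to be tested. After ARO9, the largest of these were SNO1, of vitamin B6 metabolism, at 2.52 and 3.67, PHO84, the high-affinity phosphate transporter gene, at 3.02 and 2.59, and SPL2, a regulator of phosphate transport, at 2.72 and 2.66. With genes on at least 20 arrays tested, their fitted ratios were 3.14, 2.73 and 2.43, with adjusted p-values of 1.95e-05, 1.05e-05 and 0.000367. These 3 genes were named after their values were seen. The phosphate regulon as listed had 1 higher gene of 10 tested, VTC3, for polyphosphate synthesis, at 0.53 and 0.67, which had an adjusted p of 0.0132 and of 0.061 without the first array and 0.179 without the second.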

How the data were processed

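Messenger RNA of 20 nitrogen sources was hybridised against that of urea-grown cells on 40 two-colour arrays, 2 per source, per the labels. The values are log2 ratios as the authors deposited them, in 2 tables by array design; how they were normalized was not stated in what was used here, and the log base and channel order were assumed. Ratios were turned to source over urea by the dyes in the labels and spots were averaged per gene. Genes were named from the platform annotation and RefSeq.

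A linear model with a term per source and a dye intercept was fitted to all 40 arrays by least squares per gene in R 4.3.3. Genes with values on at least 30 arrays were used, and their variances were moderated with limma 3.58.1. Tests were two-sided with Benjamini-Hochberg adjustment over all genes tested at 0.05. The comparison with the other sources needed at least 14 of the 18. The steps were tested on simulated data. SEs rest on a spread pooled over all sources, with a median residual SD of 0.168.

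Named genes were the 20 highest and 15 lowest that passed over urea with both arrays on 1 side of 0, the 10 highest and 10 lowest of the other comparisons, all members of 3 aromatic and permease lists, and up to 4 leading members of other lists. Members and lists were chosen with earlier results of these data known. Deviations of same-numbered arrays of tyrosine and each other source correlated at -0.365 to 0.124, so the numbers did not pair the arrays. Alternatives covered the dye term, filters, centring, spot summary, array weights and each array left out. DUR1,2 is not analysed here.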

Additional observations from a re-analysis of the deposited data

Results flagged for a closer look

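Tyrosine and phenylalanine, each measured against urea, differed in 70 genes by the test of the difference itself, and tyrosine and the mean of the other sources at 10 mM differed in 277. For the first pair, the 10 largest positive differences on the log2 scale were 3.46 for ARO10, 1.87 for CAR1, 1.84 for YOR062C, 1.63 for QDR3, 1.62 for GDH2, 1.31 for ESBP6, 1.27 for ARO5 (YGL117W), 1.21 for SIT1, 1.17 for PCL5 and 1.16 for YNR068C. ARO5 read 1.30 and 1.28 on tyrosine. The 10 largest negative differences were -1.90 for INO1, -1.09 for RAD27, -1.09 for EEB1, -0.996 for FMO1, -0.92 for QDR2, -0.88 for DER1, -0.88 for NGL1, -0.88 for RGM1, -0.86 for PMI40 and -0.84 for APC1. With 2 arrays per source, no group was large enough to look for a single outlying array.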

How the results depend on the processing

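The array with more missing spots, the second, carried many calls: leaving out each tyrosine array gave 195 to 343 genes over urea, and 123 to 217 against the other sources. Leaving out each of the 4 arrays gave 8 to 200 genes between tyrosine and phenylalanine. Without the dye term the counts were 273 (168 higher), 183 (116 higher) against the other sources and 26 (19 higher) against phenylalanine. With array weights they were 158 (106 higher), 82 (63 higher) and 30 (23 higher). On the genes with all 40 arrays they were 191 of 1256, 119 and 33, where fewer genes were tested. The 2 tyrosine arrays alone gave 215 genes (151 higher), or 294 (190 higher) with no filter on the other arrays, and the 4 arrays of tyrosine and phenylalanine alone gave 4. Arrays with urea in Cy5, an alternative chosen after seeing the data, gave 15 genes (13 higher) against the other sources and 0 against phenylalanine, where 128 had an unadjusted p under 0.05 in limma; tyrosine has no array in the other table, and this setting gives the same difference from the other sources for genes without missing values. With urea in Cy5, every source but tyrosine and tryptophan has 1 array, so the residual spread comes from these pairs alone. The cause of these shifts was not tested. With the replicate block replacing the dye intercept the counts were 482, 335 and 71, and 360 of the 500 genes passed in the same direction. Of the 500, 272 passed without the dye term, 158 with array weights, and 70 under these, the block and each array left out. Subtracting array medians, spot medians, at least 20 arrays, and phenylalanine left out of the mean kept each count within 1.5 times.

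URM1 turned to 0.0617 without the dye term, with the block and on the 2 arrays alone, GAP1 to 0.0223 and TRP1 to -0.0623. Without each tyrosine array in turn, ARO8 ran from -0.377 to 0.0689, MMP1 from -0.308 to 0.0154, MUP3 from -0.265 to 0.167, PUT4 from -0.249 to 0.0864, TRP1 from -0.0433 to 0.0611, TRP4 from -0.00771 to 0.206 and TYR1 from -0.00802 to 0.211, none of which had passed. The dye effect cannot be balanced within tyrosine, and 25.4% and 42.7% missing spots limit which genes could be seen.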
